A study of Mus musculus with 39 samples.

Results

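Granulocytic (G) and monocytic (M) sorts of newborn mouse bone marrow were compared gene by gene. The comparison takes the 3 G libraries and the 3 M libraries of C57BL/6 marrow, 6 of the 39 libraries of the series, and they were chosen by their titles. The series measured polyadenylated RNA of myeloid-derived suppressor cells, immature myeloid cells defined by their capacity to restrain T cells, in 13 groups of 3 libraries. The G sort is labelled as G-myeloid-derived suppressor cells and the M sort as M-myeloid-derived suppressor cells of marrow, both from C57BL/6 mice described as newborn P7 and, in the series text, as wild type. Unsorted single cells of the same kind of marrow (3 libraries) are given beside them. The same contrast in splenic G and M sorts of BALB/c mice, labelled with immune deficiency, and of APCmin/+ mice, which carry a mutant Apc allele that leads to intestinal tumours, is used at the end, with no age given for either. The sources used here do not name the surface markers of the sorts or the number of animals, or say whether animals were pooled. P values therefore measure the spread between these libraries, and how far that spread is technical is not known.

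Neutrophils and monocytes arise in marrow from a shared granulocyte and monocyte progenitor. A developing neutrophil fills its granules in waves, first the primary granules of promyelocytes with myeloperoxidase and serine proteases, then the secondary granules of myelocytes with lactoferrin and cathelicidin, then the tertiary granules with gelatinase, and it gains the chemokine and cytokine receptors of a circulating cell last. Monocytes keep part of the early programme and switch on genes of migration, antigen handling and phagocytosis, among them the chemokine receptor gene Ccr2. Newborn marrow also makes B cells and red cells and is surrounded by bone-forming and bone-resorbing cells.

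Levels are given as TPM, the transcripts of a gene relative to all transcripts of the library, already divided by transcript length and scaled to the same total of 1000000 in each library, so a level can be set beside that of another gene. The deposited values hold no read counts, the depth of each library is unknown, and no counting error is given. Differences are log2 fold changes of TPM + 1, G minus M, and are given ± their standard error. A gene was tested if it reached 1 TPM in at least 3 of the 6 libraries, and it was called where its adjusted p was under 0.05 and its change was 2-fold or more. Pearson correlations of log2 levels ran from 0.9931 to 0.9957 within a sort and from 0.9749 to 0.9786 between the sorts. Mitochondrial transcripts held 2.56% to 2.80% of TPM in the G libraries and 2.07% to 2.21% in the M libraries. The libraries numbered 1 stood apart in transcripts of the sex chromosomes. Xist, which silences the inactive X chromosome, was at 0.99 TPM in G library 1 and 0.22 TPM in M library 1, against 119 and 140.4 TPM in the other 2 G libraries and 107 and 114 TPM in the other 2 M libraries. The Y-linked gene Ddx3y was at 34.7 TPM in G library 1 and 29.6 TPM in M library 1, against 13.2 and 9.11 TPM in G libraries 2 and 3 and 10.8 and 6.42 TPM in M libraries 2 and 3. Libraries 2 and 3 of both sorts thus held Xist and Y-linked transcripts together, as did the 3 unsorted libraries (170.3 to 205 TPM of Xist and 11.04 to 16.1 TPM of Ddx3y).

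Of 13730 genes tested, 1943 were called (14.2%), 1317 higher in the G sort (9.59%) and 626 lower (4.56%). Each count of called list members below is to be read beside these shares. The median log2 fold change of all tested genes was 0.04. The 3 G libraries all lay above the 3 M libraries for 36.6% of tested genes and all below them for 27.8%, so 64.3% of genes had no overlap. The largest falls were deeper than the largest rises: the lowest called value was that of Ccr2 and the highest that of Ctsk, an osteoclast protease gene.

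**Figure D1:**
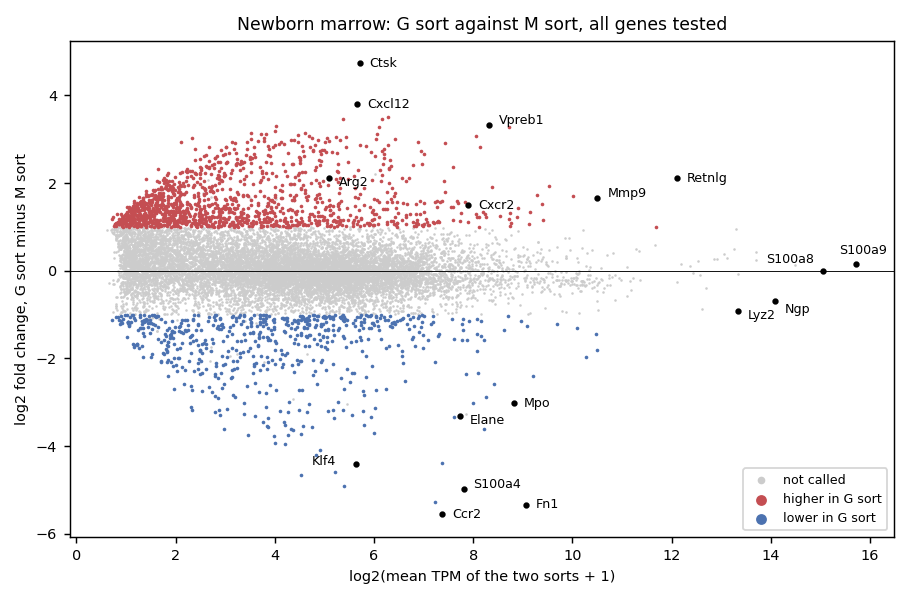
Log2 fold change of G sort minus M sort (vertical axis) against log2 of the mean TPM of both sorts plus 1 (horizontal axis) for the 13730 genes tested in newborn marrow. Red points are the 1317 genes called higher in the G sort and blue points the 626 called lower, with named genes in black; monocyte genes such as Ccr2 (-5.55) and Fn1 (-5.34) lie lowest, and S100a8 and S100a9, the highest points on the level axis, lie near 0.

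The labels were first set against genes that mark the cells. Ccr2, the receptor that lets monocytes leave marrow (chromosome 9, 124101950 to 124113557, plus strand, GRCm38), had 4.57, 6.20 and 7.23 TPM in the G libraries and 325, 308 and 336 TPM in the M libraries. Fn1, which encodes fibronectin, had 24.5, 20.02 and 31.1 TPM in the G libraries and 1006, 1038 and 1096 TPM in the M libraries. Both genes were low in each G library and high in each M library, with no overlap. Cxcr2, the receptor that draws neutrophils to inflamed tissue, had 386, 328 and 334 TPM in the G libraries and 157, 103 and 116 TPM in the M libraries. Retnlg, a resistin-like secreted protein of neutrophils, had 7489, 6599 and 7339 TPM in the G libraries and 2151, 1275 and 1629 TPM in the M libraries. These neutrophil genes were higher in the G sort without overlap (log2 fold changes 1.49 ± 0.15 and 2.11 ± 0.18, limma adjusted p = 0.000114 and 4.74e-05), but they were far from absent in the M sort. Unsorted marrow had lower levels of both than either sort, at 41.6 ± 1.51 TPM of Cxcr2 and 919 ± 30.8 TPM of Retnlg (SD, n = 3). In bulk RNA, fewer cells of a type and less of its RNA per cell cannot be told apart.

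Primary granule genes, the first wave of the neutrophil programme, were lower in the G sort. Of 7 members tested, 6 were called lower in the G sort and 0 higher, with a median of -2.75 against 0.04 for all genes tested. Mpo, which encodes myeloperoxidase, had 59.1, 108 and 139 TPM in the G libraries and 638, 869.5 and 887 TPM in the M libraries. Elane, neutrophil elastase, had 25.3, 42.6 and 48.5 TPM in the G libraries and 341, 427 and 386 TPM in the M libraries. G library 1 was the lowest of its sort for both, and no G library came within reach of an M library. Prtn3, proteinase 3, fell furthest (-3.62 ± 0.25), followed among the named members by Elane (-3.32 ± 0.22), Mpo (-3.02 ± 0.29), Ms4a3, a membrane protein of granulocyte and monocyte progenitors (-2.75 ± 0.15), and Ctsg, cathepsin G (-2.69 ± 0.22). Serpinb1a, an inhibitor of these proteases, was at -0.98 ± 0.05 and lay just short of the 2-fold limit. It passed, at -1.01, without G library 3. Unsorted marrow exceeded both sorts, with 1159.9, 1518 and 1097 TPM of Mpo. The summed list held 332, 432 and 496 TPM in the G libraries and 2056, 2527 and 2471 TPM in the M libraries, against 2994, 3950.5 and 2924 TPM in unsorted marrow.

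Because these genes moved together, the windows around their start sites are shown, from 250 bases before the start to 50 after it, from RefSeq on GRCm38.p6. The table held windows for 5 of the 7 members. Of 8 motifs searched on both strands, GAGGAAG, a letter string of the kind bound by Ets factors such as PU.1, is marked because 4 of the 5 windows held it; it was picked after that count was seen. It occurred in 13.6% of all 32851 windows and in 14.1% of those of genes tested. For genes called higher in the G sort it occurred in 16.4% of windows, and for genes called lower in 19.6%. Its longer form with an A before it, which overlaps it, was in 2 of the 5 windows and 4.55% of all windows. A C/EBP-type motif was searched as TTGCNNAA (1 of 5, 10.8% of all) and in a looser form, TTNCNNAA (1 of 5, 40.7%). An EBF-type motif was searched as CCCNNGGG (1 of 5, 13.7%) and with a T before and an A after it (0 of 5, 0.904%). The E box CAGCTG was in 0 of 5 windows and 16.3% of all, and the AP-1-type TGANTCA in 0 of 5 and 7.81%. The windows are Mpo at chr11:87793534-87793833, plus strand, Elane at chr10:79886062-79886361, plus strand, Prtn3 at chr10:79879417-79879716, plus strand, and Ctsg at chr14:56102525-56102824, minus strand. Capitals mark GAGGAAG, and each window is written 5′ to 3′ on the strand of its gene.
Mpo: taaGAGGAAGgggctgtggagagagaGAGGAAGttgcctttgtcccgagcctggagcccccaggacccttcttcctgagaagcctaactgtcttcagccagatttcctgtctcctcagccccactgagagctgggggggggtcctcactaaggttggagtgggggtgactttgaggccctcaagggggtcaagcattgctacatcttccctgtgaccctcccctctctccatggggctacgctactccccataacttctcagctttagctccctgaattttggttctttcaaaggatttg
Elane: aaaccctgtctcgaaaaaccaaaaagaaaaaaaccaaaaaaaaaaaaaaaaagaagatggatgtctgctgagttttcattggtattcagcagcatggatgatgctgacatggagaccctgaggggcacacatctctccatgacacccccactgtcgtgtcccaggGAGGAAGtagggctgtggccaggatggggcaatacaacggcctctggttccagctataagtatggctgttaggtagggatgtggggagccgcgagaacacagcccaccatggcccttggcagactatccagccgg
Prtn3: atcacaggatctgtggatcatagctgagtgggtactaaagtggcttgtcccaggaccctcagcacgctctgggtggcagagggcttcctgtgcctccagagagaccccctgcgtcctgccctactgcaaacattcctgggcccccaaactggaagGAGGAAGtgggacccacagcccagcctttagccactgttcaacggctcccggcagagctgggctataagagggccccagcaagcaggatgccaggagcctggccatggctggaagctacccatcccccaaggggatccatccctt
Ctsg: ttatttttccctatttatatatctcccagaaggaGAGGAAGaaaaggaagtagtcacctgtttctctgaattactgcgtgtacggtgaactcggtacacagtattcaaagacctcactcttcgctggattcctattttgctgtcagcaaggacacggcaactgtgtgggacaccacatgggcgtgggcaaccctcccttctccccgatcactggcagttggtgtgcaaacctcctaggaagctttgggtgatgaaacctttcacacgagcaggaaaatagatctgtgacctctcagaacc
The marked letters begin 247 and 224 bases before the start site of Mpo, 85 before that of Elane, 95 before that of Prtn3 and 216 before that of Ctsg. Windows of the secondary granule list held the letters in 5 of 10 cases and those of the tertiary granule list in 2 of 5. For the monocyte list it was 8 of 22, for the mature neutrophil list 5 of 20 and for the precursor B list 2 of 17. A match of letters is a description of the window and not a bound site.

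Secondary granule genes were very abundant in both sorts and mostly not called. Of 11 members, 0 were called higher and 1 lower, with a median of -0.07. The list summed to 37998, 39329 and 41738 TPM in the G libraries and 56053, 50330.0 and 51546 TPM in the M libraries, without overlap. Of the 11 members, 8 separated the sorts, 4 higher and 4 lower in every G library. Over all genes tested, 64.3% separated them, 36.6% higher and 27.8% lower, a share not far from that of the list. Ltf, lactoferrin, had 9907, 9643 and 10746 TPM in the G libraries and 11188, 9699 and 10904 TPM in the M libraries, which overlap. Ngp, neutrophilic granule protein, had 12282, 13497 and 14250.5 TPM in the G libraries and 22850.1, 20454 and 20866 TPM in the M libraries, a difference of -0.68 ± 0.11 (adjusted p = 0.00109) that stayed under 2-fold although the libraries did not overlap. Camp, cathelicidin (-0.86 ± 0.09, adjusted p = 0.000144), and Olfm4, olfactomedin 4 (0.74 ± 0.11, adjusted p = 0.000942), also lay under 2-fold without overlap, in opposite directions. Chil3, a chitinase-like protein of maturing neutrophils that monocytes also make, was the called member, at 693, 775 and 825 TPM in the G libraries and 2151, 2043 and 2069 TPM in the M libraries (-1.45 ± 0.07).

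Tertiary granule genes went the other way. Of 6 members, 5 were called higher in the G sort and 0 lower, with a median of 1.50. Mmp8, neutrophil collagenase, had 1631, 1489 and 1621 TPM in the G libraries and 601, 392 and 492 TPM in the M libraries. Mmp9, gelatinase B, had 2236, 2116 and 2235 TPM in the G libraries and 828, 583 and 694 TPM in the M libraries. The G libraries were close together and M library 2 was the lowest M library for both. The metalloproteinase gene Adam8 (1.58 ± 0.17), the leukocyte protease inhibitor gene Slpi (1.43 ± 0.11) and Mmp25, a membrane-bound metalloproteinase (1.41 ± 0.08), were also called, whereas Cfp, properdin, was at -0.02 ± 0.05 with overlapping libraries. The list summed to 5245, 4897 and 5259 TPM in the G libraries and 2124, 1536 and 1818 TPM in the M libraries.

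**Figure D2:**
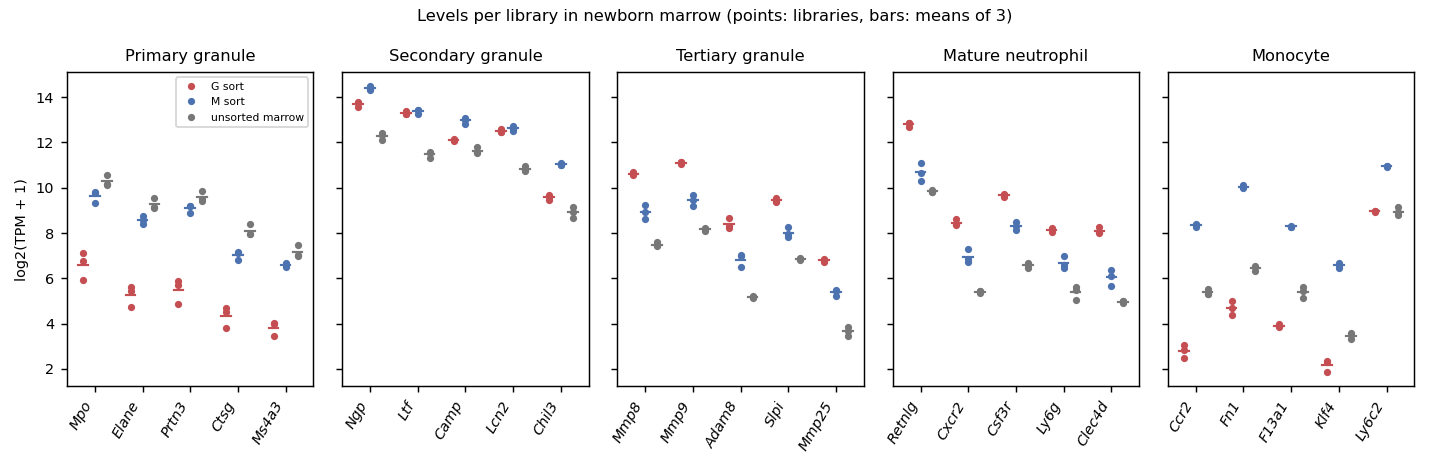
Levels per library, as log2(TPM + 1) on the vertical axis, of 5 genes each of the primary, secondary and tertiary granule, mature neutrophil and monocyte lists in the G sort (red), M sort (blue) and unsorted marrow (grey); points are libraries and bars are means of 3. G libraries lie below M libraries for the primary granule and monocyte genes shown, near them for Ltf and Lcn2, and above them for the tertiary granule and mature neutrophil genes shown.

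Of 20 genes of mature neutrophils, 10 were called higher in the G sort and 0 lower, with a median of 0.99 and single values up to that of Retnlg. Every G library lay above every M library for 19 of 20, against 36.6% of all genes tested. Csf3r, the receptor for granulocyte colony-stimulating factor, had 819.8, 781 and 836 TPM in the G libraries and 361, 282 and 317 TPM in the M libraries (1.35 ± 0.09, adjusted p = 1.51e-05). Ly6g, the surface antigen by which mouse neutrophils are usually sorted, had 295, 282 and 262 TPM in the G libraries and 126, 87.03 and 95.2 TPM in the M libraries (1.45 ± 0.13); it belongs to the Ly6 family, whose members can share reads. The M sort thus kept a measurable Ly6g level, lowest in M library 2, and unsorted marrow had 44.4, 47.7 and 32.1 TPM. The lectin receptor gene Clec4d (2.06 ± 0.16), Il1b, interleukin-1 beta (1.76 ± 0.19), the decoy receptor gene Il1r2 (1.68 ± 0.11) and the formyl peptide receptor gene Fpr1 (1.59 ± 0.14) were called too. The stefin genes Stfa2 (0.96 ± 0.11) and Stfa2l1 (0.49 ± 0.10), intracellular inhibitors of cysteine proteases with near-identical copies that may share reads, stayed under 2-fold. Stfa2 passed without M library 1 (1.06) or without G library 2. The list summed to 37473, 34860.4 and 37951 TPM in the G libraries and 21959.8, 17150.4 and 19118 TPM in the M libraries.

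The monocyte list held the lowest single value of the comparison, that of Ccr2. Of 22 members, 16 were called lower in the G sort and 0 higher, with a median of -2.67. Every G library lay below every M library for 19 of 22, against 27.8% of all genes tested. Ms4a6c, a membrane protein of monocytes and macrophages from a family that can share reads, had 5.45, 7.33 and 7.33 TPM in the G libraries and 295, 289.9 and 295 TPM in the M libraries (-5.27 ± 0.10, adjusted p = 1.64e-07). F13a1, coagulation factor XIII chain A, had 13.8, 13.3 and 14.9 TPM in the G libraries and 308, 309.9 and 320.1 TPM in the M libraries (-4.39 ± 0.06). The M libraries of both genes lay close together and far above the G libraries. Csf1r, the receptor for macrophage colony-stimulating factor, had 68.5, 65.5 and 66.7 TPM in the G libraries and 187, 202 and 215 TPM in the M libraries (-1.57 ± 0.06). The surface antigen gene Ly6c2 (-1.98 ± 0.05) kept 491, 504 and 507 TPM in the G libraries, close to the 479.5, 572 and 438 TPM of unsorted marrow. Lgals3, galectin 3 (-0.98 ± 0.05), and Emb, embigin (-0.82 ± 0.06), lay under the 2-fold limit, and Lgals3 passed without G library 1 (-1.02) or without M library 2. The list summed to 1625, 1574 and 1623 TPM in the G libraries and 7654, 7729 and 7909 TPM in the M libraries, against 1569.6, 1792 and 1514 TPM in unsorted marrow.

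The S100 genes, which encode small calcium-binding proteins, split. Of 10 members, 8 were tested, and 3 were called lower and 0 higher in the G sort. S100a8 and S100a9, the pair that forms calprotectin, held 8.56% to 9.58% of all TPM in the G libraries and 7.93% to 9.43% in the M libraries, against 2.16% to 2.82% in unsorted marrow. S100a9 had 59079, 53441 and 57551 TPM in the G libraries and 56369, 47698 and 49570.2 TPM in the M libraries, with overlap (0.15 ± 0.14, adjusted p = 0.396). S100a8 was at 0.00 ± 0.13, and its sign turned when single libraries were left out (-0.06 without G library 1, -0.04 without M library 2 or 3). S100a4, a motility protein, had 12.2, 12.9 and 13.4 TPM in the G libraries and 428, 462 and 408 TPM in the M libraries (-4.97 ± 0.06). S100a10, the annexin A2 partner (-2.09 ± 0.08), and S100a1 (-2.05 ± 0.10) were the other called members. Outside the lists, the most abundant genes of the comparison included the stefin gene Stfa1, at 24310.2, 22605 and 25259 TPM in the G libraries and 23515, 20157 and 22319 TPM in the M libraries. Lyz2, the lysozyme of myeloid cells, had 7270.5, 7089.8 and 7124 TPM in the G libraries and 14015, 13266 and 13280.1 TPM in the M libraries (-0.92 ± 0.08), without overlap and under 2-fold.

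Genes tied to suppression of T cells were called in both directions. Of 20 members, 15 were tested, 5 were called higher in the G sort and 2 lower, with a median of 0.07. Over all genes tested, the shares were 9.59% and 4.56%. Arg1, arginase 1, reached at most 0.13 TPM and Nos2, the inducible nitric oxide synthase, at most 0.04 TPM in any of the 6 libraries, and neither was tested. Il10, Ido1 and Slc27a2 were also under the filter. Arg2, the mitochondrial arginase, had 58.2, 52.2 and 52.5 TPM in the G libraries and 15.1, 9.47 and 11.3 TPM in the M libraries (2.12 ± 0.15, adjusted p = 2.01e-05). Nt5e, the CD73 ectoenzyme that forms adenosine, had 38.6, 32.5 and 39.2 TPM in the G libraries and 10.6, 6.96 and 9.00 TPM in the M libraries (1.95 ± 0.14). For both, M library 2 was the lowest and the sorts did not overlap. Cd84, an adhesion receptor of the SLAM family, was called higher (1.11 ± 0.08). So were Entpd1, the CD39 ectoenzyme (1.05 ± 0.07), and Ptgs2, cyclooxygenase 2 (1.45 ± 0.30), the latter at a mean of 4.06 TPM in the G libraries. Wfdc17, a small secreted protein of myeloid cells, had 11.1, 9.71 and 9.71 TPM in the G libraries and 66.6, 79.8 and 69.8 TPM in the M libraries (-2.71 ± 0.09), and Olr1, the LOX-1 receptor of oxidised lipoprotein, was also called lower (-1.24 ± 0.11). Cd274, which encodes PD-L1, stayed between 2.65 and 4.9 TPM in the 6 libraries (-0.13 ± 0.17, adjusted p = 0.564), and its sign turned without G library 2 (0.01) or M library 3 (0.02). Alox5, 5-lipoxygenase, was at 0.68 ± 0.08 and its partner Alox5ap at -0.40 ± 0.05, both under 2-fold. Of the 7 tested genes of the NADPH oxidase, which makes the superoxide of phagocytes, 0 were called, and Ncf1, a cytosolic subunit, was at 0.29 ± 0.06 while Cyba, a membrane subunit, was at -0.53 ± 0.10.

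Among 21 myeloid transcription factor genes, 1 was called higher in the G sort and 7 lower, against 9.59% and 4.56% of all genes tested. Klf4, a factor of monocyte differentiation, had 2.65, 4.03 and 3.91 TPM in the G libraries and 87.4, 94.7 and 101 TPM in the M libraries (-4.41 ± 0.13). Irf8, which directs progenitors towards monocytes, had 38.6, 37.2 and 39.2 TPM in the G libraries and 144, 155 and 152 TPM in the M libraries (-1.94 ± 0.05). Irf5, a factor of inflammatory cytokine genes, was at -1.84 ± 0.05. Cebpa, a factor needed for granulocytes, had 8.33, 5.79 and 6.62 TPM in the G libraries and 21.4, 24.1 and 25.02 TPM in the M libraries (-1.64 ± 0.13). Each of these factors was lower in every G library than in any M library. Spi1, which encodes PU.1 (-0.19 ± 0.05), and Cebpe, a factor of secondary granule genes (-0.36 ± 0.05), differed by less than 2-fold. Myb, a factor of progenitors, was the member called higher, at 190.3, 194 and 185 TPM in the G libraries and 61.2, 67.2 and 65.3 TPM in the M libraries (1.54 ± 0.05). Precursor B cell genes, which summed to 4774 to 5210.4 TPM in the G libraries and 660.2 to 857 TPM in the M libraries, moved with Myb, and their part in its level was not tested. Of 8 receptors for colony-stimulating factors and related cytokines, Csf3r was called higher, Csf1r and the interleukin-3 receptor gene Il3ra (-1.25 ± 0.09) were called lower, and Csf2ra (-0.29 ± 0.06) and Csf2rb (-0.46 ± 0.06), the chains of the receptor for granulocyte and macrophage colony-stimulating factor, were not called.

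Chemokine receptor genes divided evenly, with 3 of 11 tested called higher in the G sort and 3 lower, against 9.59% and 4.56% of all genes tested. Besides Ccr2, the fractalkine receptor gene Cx3cr1 had 2.49, 2.76 and 2.88 TPM in the G libraries and 32.4, 34.2 and 34.8 TPM in the M libraries (-3.23 ± 0.08). On the higher side, Cxcr5, the receptor by which B cells enter follicles, had 16.6, 14.7 and 14.1 TPM in the G libraries and 2.11, 2.06 and 1.23 TPM in the M libraries (2.54 ± 0.15). Cxcr4, which holds cells in marrow, had 389, 402 and 402 TPM in the G libraries and 347, 319 and 338 TPM in the M libraries, a difference of 0.25 ± 0.05, and Ccr1 was at 0.61 ± 0.12; neither was called.

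Receptors for microbes and antibodies were called in both directions, as were all genes tested, at 9.59% higher and 4.56% lower. Of 12 C-type lectin genes, 1 was called higher (Clec4d) and 4 lower, 2 of these 4, Clec10a among them, tested through the M libraries only. Clec4a3 (-3.52 ± 0.11), Clec4a1 (-3.19 ± 0.08) and Clec10a (-2.86 ± 0.12) were lowest. The Clec4a genes are close relatives and may share reads. Of 12 Toll-like and formyl peptide receptor genes, 2 were called higher and 3 lower. Tlr5, the receptor for flagellin, had 21.2, 19.9 and 20.4 TPM in the G libraries and 7.91, 5.17 and 6.32 TPM in the M libraries (1.54 ± 0.13), whereas Tlr9, the receptor for unmethylated DNA, had 5.06, 4.86 and 5.03 TPM in the G libraries and 17.2, 19.2 and 18.6 TPM in the M libraries (-1.69 ± 0.08). Both genes separated the sorts without overlap, in opposite directions. Of 6 tested Fc receptor genes, which bind antibody, 1 was called higher and 3 lower. Fcgr1, the high-affinity receptor, had 1.96, 2.96 and 1.89 TPM in the G libraries and 40.9, 40.8 and 44.7 TPM in the M libraries (-3.74 ± 0.13). The inhibitory receptor gene Fcgr2b was at -1.73 ± 0.08, Fcgr3 was at 0.26 ± 0.06, and Fcgr4 was called higher (1.04 ± 0.08) but not without M library 2 (0.95). Among 11 integrin and selectin genes, Itgb7, the integrin beta 7 chain, had 16.4, 16.1 and 15.9 TPM in the G libraries and 109, 112 and 117 TPM in the M libraries (-2.73 ± 0.05). Itgam, which encodes CD11b (0.32 ± 0.08), and its partner Itgb2 (0.21 ± 0.06) were near equal; the 3 members called higher became 0 without G library 1 or M library 1.

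Antigen presentation genes did not move as a block. Of 6 tested genes of the class II pathway, 1 was called higher and 2 lower, against 9.59% and 4.56% of all genes tested. H2-DMa, which loads peptide onto class II molecules, had 5.98, 8.97 and 8.20 TPM in the G libraries and 62.9, 73.3 and 66.4 TPM in the M libraries (-2.99 ± 0.14). H2-Ab1, a chain of the class II molecule itself, had 34.99, 35.8 and 33.98 TPM in the G libraries and 12.2, 16.4 and 15.00 TPM in the M libraries (1.22 ± 0.10), and Cd74, the invariant chain, was at 0.62 ± 0.08. B cells also make class II molecules, B cell genes were higher in the same G libraries, and their part in these levels was not tested. Of 15 tested interferon-stimulated genes, 1 was called higher and 3 lower, 1 of these 3 tested through the M libraries only, among them the antiviral gene Mx1, at 0.9, 0.95 and 1.02 TPM in the G libraries and 18.3, 15.9 and 19.8 TPM in the M libraries (-3.27 ± 0.11), and Ifi27l2a (-1.70 ± 0.10). Most other members, with a list median of -0.27, were not called.

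Genes of cell division were well expressed in both sorts but summed to less than in unsorted marrow. S phase genes summed to 1366, 1718 and 1450.2 TPM in the G libraries and 1609, 1898 and 1764 TPM in the M libraries, against 3901, 3910.3 and 3679 TPM in unsorted marrow. Genes of the G2 and M phases summed to 1201, 1543 and 1330.1 TPM in the G libraries and 2219, 2424 and 2322 TPM in the M libraries, against 3093, 3139.8 and 2952 TPM in unsorted marrow. Of 15 S phase genes, 0 were called (median -0.18), and Pcna, the replication clamp, had 257, 310.4 and 260.0 TPM in the G libraries and 273, 313 and 287 TPM in the M libraries, with overlap. Of 17 genes of the G2 and M phases, 2 were called lower in the G sort and 0 higher, with a median of -0.76. Yet 16 of 17 lay lower in every G library than in any M library, against 27.8% of all genes tested. Mki67, the proliferation marker, had 132, 169.6 and 155 TPM in the G libraries and 241, 265 and 264 TPM in the M libraries (-0.76 ± 0.09, adjusted p = 0.000336). Aurkb, a mitotic kinase, was called (-1.17 ± 0.12), and Aurka (-1.01 ± 0.10) was called by a narrow margin that was lost after rescaling (-0.99) and without G library 1 (-0.93), G library 3 (-0.99), M library 2 (-0.98) or M library 3 (-0.99). G library 1 was the lowest library for these genes, as it was for Mpo and Elane.

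**Figure D3:**
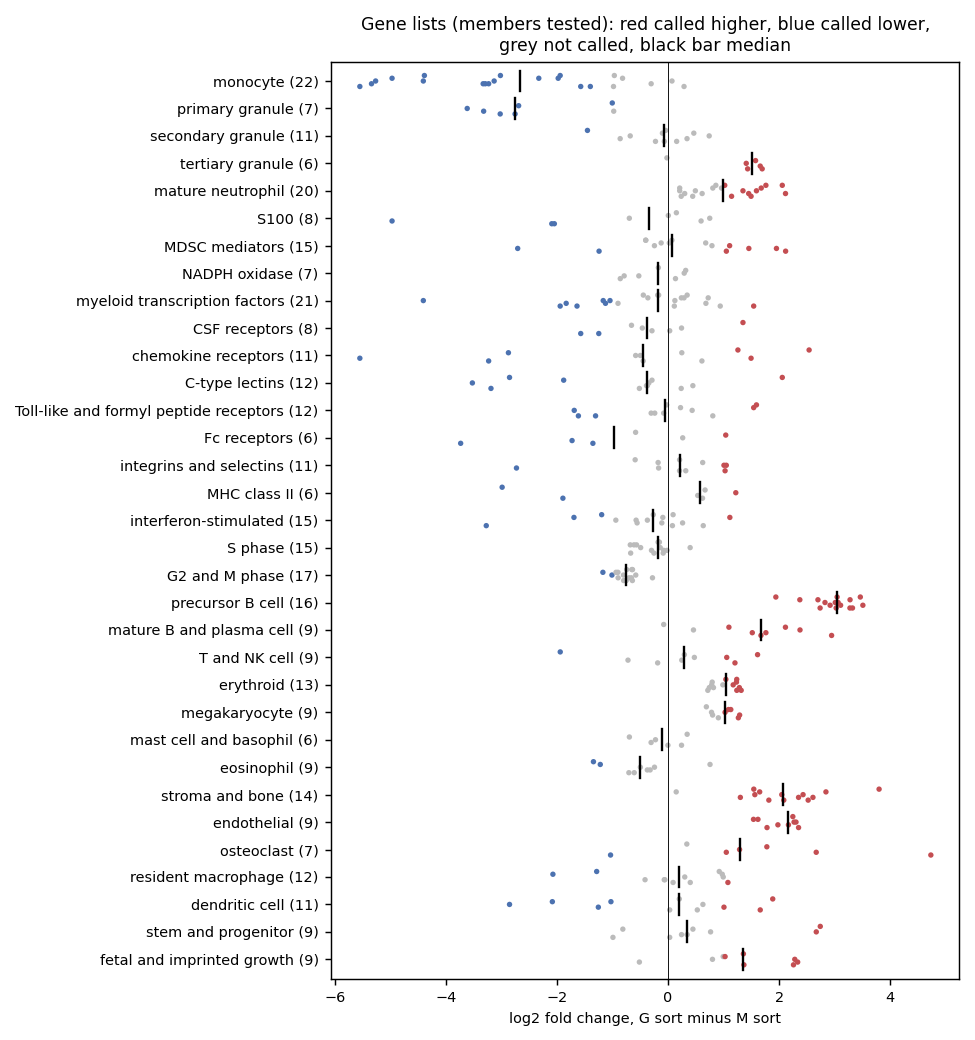
Log2 fold change, G sort minus M sort (horizontal axis), of each tested member of 33 gene lists (rows, with the number of members tested); red points were called higher, blue points were called lower, grey points were not called, and black bars are medians. The monocyte (-2.67) and primary granule (-2.75) lists lie lowest and the precursor B cell list (3.03) highest.

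Genes of other cell types also separated the sorts. Of 16 precursor B cell genes, 16 were called higher in the G sort, between 1.94 and 3.51. Vpreb2, part of the surrogate light chain of precursor B cells and a close copy of Vpreb1 with which it may share reads, had 145, 154 and 127 TPM in the G libraries and 11.4, 11.8 and 11.4 TPM in the M libraries (3.51 ± 0.08, adjusted p = 2.44e-07). Rag1, a subunit of the recombinase that joins receptor gene segments, had 135, 123 and 111 TPM in the G libraries and 12.2, 13.3 and 10.1 TPM in the M libraries (3.27 ± 0.11). Every G library was high and every M library low for both. The list summed to 5011, 5210.4 and 4774 TPM in the G libraries and 776, 857 and 660.2 TPM in the M libraries, against 2016, 2264 and 1964 TPM in unsorted marrow. The G sort therefore exceeded the unsorted cells and the M sort fell short of them. Of 9 tested genes of mature B and plasma cells, 7 were called higher and 0 lower, among them Mzb1, a chaperone of antibody-making cells (2.94 ± 0.18), and Ighd, the IgD constant region (2.38 ± 0.11).

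Genes of bone, stroma and vessels were also higher in the G sort. Of 14 tested stroma and bone genes, 13 were called higher, and of 9 endothelial genes, 9. However, 6 of the 13 and 3 of the 9 passed the level filter through the G libraries only, with no M library at 1 TPM, and such members could hardly be called other than higher. Of the others, 7 of 8 stroma and bone genes and 6 of 6 endothelial genes were called higher. Cxcl12, the chemokine with which marrow stroma holds haematopoietic cells, had 124, 61.3 and 94.8 TPM in the G libraries and 6.29, 3.42 and 7.62 TPM in the M libraries (3.8 ± 0.31). Col1a2, a chain of type I collagen, had 147, 73.8 and 111 TPM in the G libraries and 25.3, 11.2 and 15.99 TPM in the M libraries (2.61 ± 0.32). In both sorts library 2 was the lowest for these genes, and the sorts did not overlap. Stab2, a scavenger receptor of sinusoidal endothelium, had 18.6, 10.8 and 16.9 TPM in the G libraries and 1.67, 2.41 and 2.78 TPM in the M libraries (2.30 ± 0.21), and Egfl7, a secreted endothelial protein, was at 2.25 ± 0.13. Endothelial genes summed to 152, 102 and 117 TPM in the G libraries and 20.2, 20.3 and 21.2 TPM in the M libraries, against 93.5, 75.1 and 105 TPM in unsorted marrow. Stroma and bone genes summed to 685, 369.9 and 536 TPM in the G libraries and 108, 57.3 and 80.2 TPM in the M libraries, against 946, 729.5 and 1207 TPM in unsorted marrow. Of 7 tested osteoclast genes, 5 were called higher, 2 of them tested through the G libraries only, and 1 lower. The member called lower was Tnfrsf11a, the receptor RANK (-1.04 ± 0.11), with means of 0.96 TPM in the G sort and 3.02 TPM in the M sort. Nfatc1, a factor of osteoclast differentiation, was not called (0.34 ± 0.05). Ctsk, the collagen-degrading protease of osteoclasts, had 95.4, 104 and 100.1 TPM in the G libraries and 1.46, 3.46 and 4.00 TPM in the M libraries (4.73 ± 0.24), and Acp5, the tartrate-resistant phosphatase, had 116, 137 and 124 TPM in the G libraries and 14.8, 23.2 and 19.5 TPM in the M libraries (2.67 ± 0.15). Ctsk in the G libraries was near the 75.8, 67.3 and 109 TPM of unsorted marrow.

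**Figure D4:**
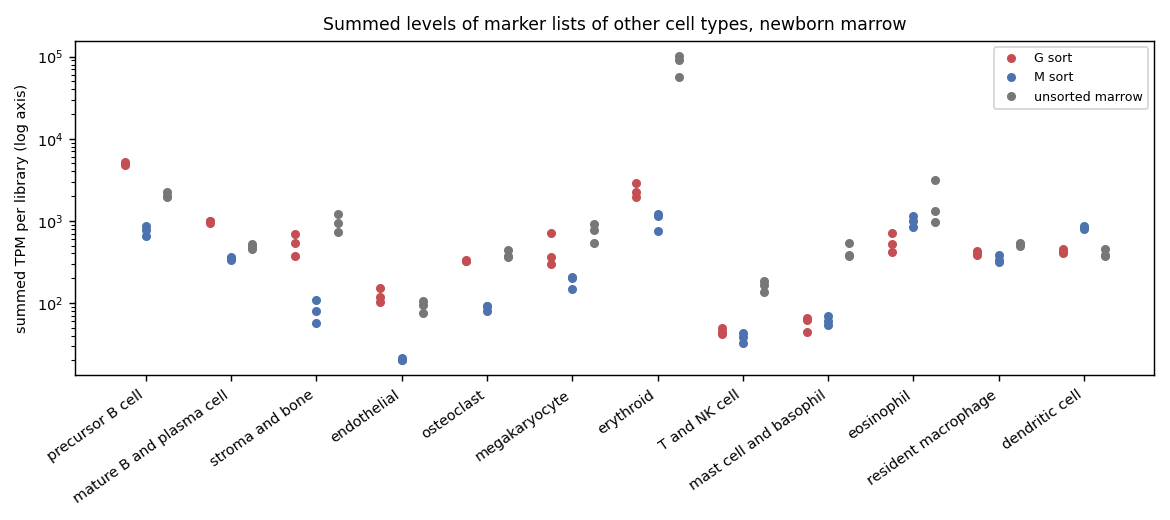
Summed TPM per library (log axis) of 12 marker lists of other cell types in the G sort (red), M sort (blue) and unsorted marrow (grey). Precursor B cell genes are highest in the G sort (4774 to 5210.4 TPM), and erythroid genes are far higher in unsorted marrow than in either sort.

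Red cell genes summed to far less in both sorts than in unsorted marrow, and to more in the G sort than in the M sort. Of 13 tested erythroid genes, 7 were called higher in the G sort and 0 lower, with a median of 1.04. All 13 were higher in every G library than in any M library, against 36.6% of all genes tested. The list summed to 2252, 1940.5 and 2866 TPM in the G libraries and 749.6, 1158 and 1197 TPM in the M libraries, against 91257, 55901 and 102147 TPM in unsorted marrow. Hbb-bs, an adult beta globin gene whose close copy may share reads, was at 1.32 ± 0.20. With single libraries left out, the count of 7 ran from 3 to 10, at 4 without G library 3 and 3 without M library 1. It was 0 in a fit of all 39 libraries. Of 9 megakaryocyte genes, 5 were called higher, and all 9 were higher in every G library than in any M library. With single libraries left out, the count of 5 ran from 0 to 7, at 0 without G library 1 and 3 without M library 1. Ppbp, a platelet chemokine precursor, had 293, 107 and 129.6 TPM in the G libraries and 54.8, 70.7 and 70.2 TPM in the M libraries, so G library 1 stood apart. Without it the log2 fold change of Ppbp was 0.85, against 1.29 ± 0.34 with it. Pf4, platelet factor 4, was at 1.26 ± 0.30 and at 0.96 without that library.

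The remaining lineages were low or mixed. Their counts stand beside 9.59% of all genes tested called higher and 4.56% called lower. Of 9 tested T and NK cell genes, 3 were called higher and 1 lower, with Lck, a T cell kinase, at 12.9, 13.4 and 10.7 TPM in the G libraries and 2.33, 4.27 and 3.67 TPM in the M libraries (1.61 ± 0.18), and Nkg7, a granule protein of killer cells, at 2.39, 3.39 and 6.24 TPM in the G libraries and 15.2, 21.96 and 15.4 TPM in the M libraries (-1.94 ± 0.28). Cd3d, a T cell receptor subunit, was called at 1.2 ± 0.25 but not without M library 2 (0.92). Of the 14 members of this list, 5 were under the filter, Cd3e, Trac and Cd8a among them. Cd3g, Cd4 and Trbc2 were tested but not called. Eosinophil genes had 2 of 9 members called lower, with the ribonuclease gene Ear2, one of a family that shares reads, at -1.34 ± 0.10. Prg2, the eosinophil major basic protein, was at -0.61 ± 0.23 with overlapping libraries. Of 6 tested mast cell and basophil genes, 0 were called. Of 12 tested resident macrophage genes, 1 was called higher and 2 lower: Slc40a1, the iron exporter ferroportin (1.08 ± 0.06), was higher, and Adgre1, which encodes the F4/80 antigen (-2.07 ± 0.08), was lower. C1qb, a complement chain, was at -0.07 ± 0.20, and its sign turned without G library 3 (0.04) or M library 2 (0.12). Of 11 tested dendritic cell genes, 3 were called higher and 4 lower, 3 of these 4 tested through the M libraries only. The factors Irf4 (1.88 ± 0.11) and Tcf4 (1.66 ± 0.08), which B lineage cells also express, were higher. Clec10a, 1 of the 3 tested through the M libraries only, was lower and could hardly be called otherwise.

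Of 9 tested stem and progenitor genes, 2 were called higher in the G sort and 0 lower, against 9.59% and 4.56% of all genes tested. Cd34, a surface antigen of progenitors (-0.99 ± 0.14, adjusted p = 0.000798), and the stem cell factor gene Hlf (-0.82 ± 0.12, adjusted p = 0.000757) were lower in every G library than in any M library but under 2-fold. Sox4, a factor of early lymphoid and progenitor cells, had 41.3, 40.7 and 38.7 TPM in the G libraries and 4.93, 5.93 and 4.71 TPM in the M libraries (2.74 ± 0.09), and Adgrg1, an adhesion receptor of stem cells, had 192, 248 and 222 TPM in the G libraries and 28.2, 46.5 and 29.1 TPM in the M libraries (2.67 ± 0.19). Of 9 tested fetal and imprinted growth genes, 6 were called higher and 0 lower. Of the 6, 3 were tested through the G libraries only, Igf2 and Mest among them, and such members could hardly be called other than higher. Igf2bp3, an RNA-binding protein of fetal tissue, was lower in every G library (-0.52 ± 0.08, adjusted p = 0.00087) but under 2-fold. H19, an imprinted RNA, had 12.2, 9.83 and 12.5 TPM in the G libraries and 1.29, 1.62 and 1.52 TPM in the M libraries (2.33 ± 0.12), and Igf2, a fetal growth factor from the same imprinted cluster, had 8.38, 3.58 and 6.81 TPM in the G libraries and 0.48, 0.32 and 0.57 TPM in the M libraries (2.26 ± 0.25). Igf2 and the imprinted gene Mest (2.28 ± 0.28) were lowest in library 2 of the G sort, as the stroma genes were, and the part of the stroma genes in their levels was not tested.

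Outside the lists, the genes with the deepest falls included Ms4a4c (-4.92 ± 0.11), Arhgef37 (-4.66 ± 0.09), Ifi211 (-4.58 ± 0.15) and Ptpro (-4.21 ± 0.20). Arhgef37 had 0.6, 0.89 and 0.8 TPM in the G libraries and 42.04, 44.7 and 43.5 TPM in the M libraries, with 3.29 ± 0.452 TPM in unsorted marrow (SD, n = 3). It was tested through the M libraries only, so it could hardly be called other than lower. Ms4a4c and Ifi211 belong to clustered families whose members may share reads. Among the largest rises outside the lists, Cplx2, complexin 2, a regulator of vesicle fusion, had 115, 127 and 115 TPM in the G libraries and 12.7, 15.01 and 10.8 TPM in the M libraries (3.12 ± 0.11), and Pcp4l1, a calmodulin-binding protein relative, was at 3.14 ± 0.08. Lack of overlap was a condition for choosing these genes.

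The marrow contrast was then set against the same contrast in spleen, in a single fit of 18 libraries that tested the difference of the contrasts for 16065 genes. Tissue and mouse strain differ together between marrow and spleen, as may age. The immune deficiency labelled for BALB/c mice and the mutant Apc allele of APCmin/+ mice differ along with them. These cannot be told apart, and the 2 differences share the marrow libraries. Against BALB/c spleen 1306 genes were called (8.13%), 1081 with a more positive contrast in marrow (6.73%) and 225 with a more negative one (1.4%). Against APCmin/+ spleen 1326 were called (8.25%), 1120 positive (6.97%) and 206 negative (1.28%). The median difference over all genes was 0.16 and 0.18, and rescaling each library by its median ratio brought these medians to 0.03 and 0.05.

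Vpreb1, another surrogate light chain gene, showed a contrast of 3.32 in marrow, 0.20 in BALB/c spleen and 0.17 in APCmin/+ spleen, with no splenic library above 0.93 TPM. The differences were 3.12 ± 0.28 (adjusted p = 3.12e-06) and 3.15 ± 0.28 (adjusted p = 3.01e-06). Ctsk differed by 4.58 ± 0.32 and 4.46 ± 0.32, and Cxcl12 by 3.44 ± 0.35 and 3.69 ± 0.35, with splenic sorts at no more than 1.37 TPM of Ctsk and 0.64 TPM of Cxcl12. At such levels the addition of 1 TPM holds a splenic contrast near 0, so for these 3 genes the differences restate the marrow contrast beside a near absence of the transcript in the splenic sorts. Cxcr2 had 326, 255 and 205 TPM in the BALB/c splenic G libraries and 7.88, 3.69 and 13.8 TPM in the M libraries. Its contrast of 1.49 in marrow was smaller than the 4.92 in BALB/c spleen (difference -3.43 ± 0.85, adjusted p = 0.0135), and the wider gap in that spleen came with lower M sort levels than the 157, 103 and 116 TPM of the marrow M libraries. APCmin/+ spleen did not show this gap: its contrast of Cxcr2 was 1.38, from 276, 567 and 851 TPM in the G libraries and 55.5, 391 and 339 TPM in the M libraries, which overlap, and the difference from marrow was 0.11 ± 0.85 (adjusted p = 0.952). Ccr2 had a contrast of -5.55 in marrow and -5.56 in BALB/c spleen, a difference of 0.01 ± 0.77 whose sign turned after rescaling (-0.14). Against APCmin/+ spleen, where the contrast of Ccr2 was -2.98 and the M libraries held 89.9, 30.1 and 296 TPM, the difference was -2.57 ± 0.77 (adjusted p = 0.0406). That call was lost without a filter, and when any single marrow or APCmin/+ library other than G library 1 and M library 3 of APCmin/+ spleen was left out. Without M library 2 of APCmin/+ spleen the difference was -1.77. Klf4 differed by -2.47 ± 0.45 against APCmin/+ spleen (adjusted p = 0.00191) and by -1.14 ± 0.45 against BALB/c spleen (adjusted p = 0.117, not called). Fn1 was not called against either spleen (-1.17 ± 0.81 and -1.52 ± 0.81), and without M library 3 of APCmin/+ spleen it was called at -2.38. Retnlg, at 1.48 ± 0.80 and 1.49 ± 0.80, was not called against either, and against APCmin/+ spleen it was called once replicate number entered as a block, at an adjusted p of 0.0114. S100a8 differed by -1.83 ± 0.71 against BALB/c spleen (adjusted p = 0.106), where it had 5585, 6510.4 and 3875 TPM in the G libraries and 1310, 1754 and 1339 TPM in the M libraries, and by 0.25 ± 0.71 against APCmin/+ spleen (adjusted p = 0.856).

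**Figure D5:**
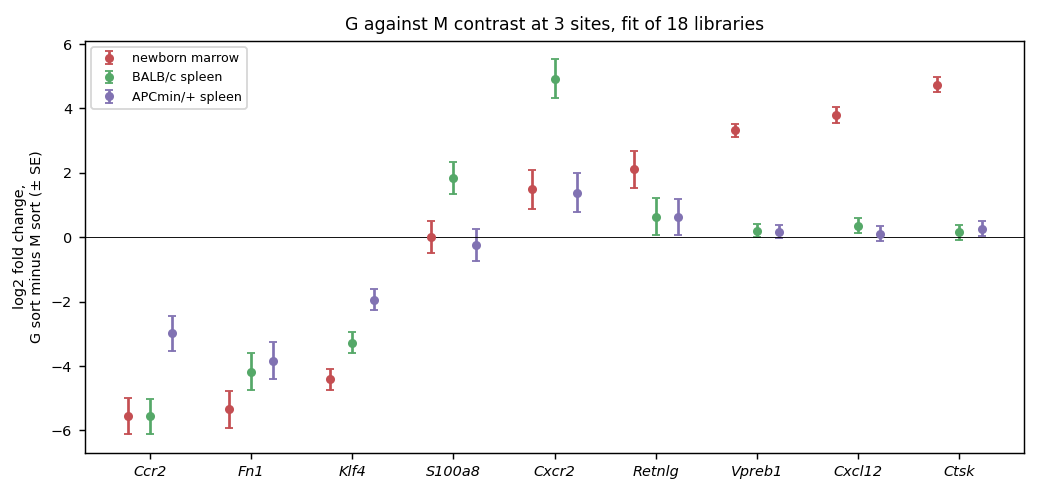
Log2 fold change, G sort minus M sort, ± standard error, of 9 genes in newborn marrow (red), BALB/c spleen (green) and APCmin/+ spleen (purple), from a fit of 18 libraries. Vpreb1, Cxcl12 and Ctsk are high in marrow and near 0 in both spleens, and Cxcr2 separates the sorts of BALB/c spleen (4.92) more than those of marrow (1.49) or APCmin/+ spleen (1.38).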

How the data were processed

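Sorting into Trizol, TruSeq stranded libraries of polyadenylated RNA and single reads of 75 bp are recorded in the labels' protocols. Per the submitters' processing notes, bcl2fastq 2.18, STAR 2.6.1c, RSEM and the build mm10 were used. The sources used here name neither the annotation nor the RSEM version. The authors deposited TPM per gene for 53465 genes. The 26 symbols that had been turned into dates were restored by identifier. Gene names were found for 53274 identifiers, and the 220 entries whose symbol repeats were told apart by identifier.

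Log2(TPM + 1) of the 3 G and 3 M marrow libraries was fitted with limma 3.58.1 in R 4.3.3, with a trend of variance with level (4 residual degrees of freedom, median prior 3.4). Adjustment was by Benjamini and Hochberg over 13730 genes. Differences between contrasts came from a fit of 18 libraries. The script was tested on simulated data. Sums over a list are described and not tested, because an exact two-sided permutation test of 3 against 3 libraries cannot go below p = 0.1. The members were also chosen with results known. Sums and figures were made with pandas 2.3.3, matplotlib 3.10.9 and numpy 2.4.6 (Python 3.11.15).

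The comparison, its members and the 33 lists (382 genes, 381 in the table) were chosen with earlier results of these data known. Genes named are a subset of a panel of 16, the 12 largest and 12 smallest called changes without overlap at a higher mean of at least 20 TPM, up to 5 called and 2 uncalled members of each list (and all called members where a list has few), and the 5 most abundant genes outside the lists. Some other list members are named as well. The 9 genes compared between marrow and spleen were chosen after their values were seen. Positions are from GENCODE on GRCm38.

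Deviations of equally numbered G and M libraries from their group means correlated at 0.149, 0.187 and 0.102 in marrow and 0.569, 0.38 and 0.423 in APCmin/+ spleen. By the rule that each pass 0.1, numbers pair these samples. The labels give no meaning to a number, so this pairing is read from the data. In BALB/c spleen (0.107, 0.06 and 0.055) that rule is not met. Unequally numbered libraries there lay lower, from -0.08 to 0.015, so pairing in that spleen is not settled. The main fits held no replicate block, so their p values do not use the pairing. The alternatives were a pseudocount of 0.1, no filter, a minimum of 5 TPM, rescaling by median ratios, no fold minimum, fits of 9 or 39 libraries, replicate number as a block, and each library left out in turn.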

Additional observations from a re-analysis of the deposited data

Results flagged for a closer look

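For some genes the G against M contrast of marrow differed from that of a spleen by a limma test of the difference itself, among 9 genes looked at. Against BALB/c spleen the differences, marrow minus spleen on the log2 scale, were -3.43 for Cxcr2 (adjusted p = 0.0135), 3.12 for Vpreb1 (adjusted p = 3.12e-06), 4.58 for Ctsk (adjusted p = 1.89e-07) and 3.44 for Cxcl12 (adjusted p = 9.06e-06). Against APCmin/+ spleen they were -2.57 for Ccr2 (adjusted p = 0.0406), 3.15 for Vpreb1 (adjusted p = 3.01e-06), 4.46 for Ctsk (adjusted p = 2.8e-07), -2.47 for Klf4 (adjusted p = 0.00191) and 3.69 for Cxcl12 (adjusted p = 4.61e-06). The contrasts behind them each rest on 3 against 3 libraries. The call of Ccr2 against APCmin/+ spleen was lost without a filter and when most single libraries were left out, and the difference was -1.77 without M library 2 of that spleen. Cxcr2 was not called against APCmin/+ spleen (0.11, adjusted p = 0.952), nor Klf4 against BALB/c spleen (-1.14, adjusted p = 0.117). Ctsk, Vpreb1 and Cxcl12 reached no more than 1.37, 0.93 and 0.64 TPM in any splenic sort, where the addition of 1 TPM holds a contrast near 0, so their differences restate the marrow contrast. For Klf4 it was negative in each, at -4.41 in marrow, -3.27 in BALB/c spleen and -1.94 in APCmin/+ spleen. Groups of 3 libraries were too small to look for single outlying samples.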

How the results depend on the processing

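The count of 1943 genes called in marrow stayed between 1306 (minimum of 5 TPM) and 2565 (pseudocount 0.1), between 1881 and 2029 with each library left out, and at 1956 with replicate number as a block, of which 1940 were shared. Without a fold minimum it was 7910, and the differences between contrasts then called 2153 genes (BALB/c spleen) and 2078 (APCmin/+ spleen). The block gave 1655 and 1668 in place of 1306 and 1326, and leaving out libraries 1089 to 1305 and 1062 to 1799. The numbers of BALB/c spleen did not meet the rule for pairing. Against BALB/c spleen the block called Retnlg (adjusted p = 0.0107), S100a8 (adjusted p = 0.00111) and Klf4 (adjusted p = 0.0158). It changed no other call of a named gene besides Retnlg against APCmin/+ spleen. Klf4 against BALB/c spleen also passed in the fit of 39 libraries (adjusted p = 0.0301). Hbb-bs and Pf4 in marrow did not pass in that fit (adjusted p = 0.0778 and 0.0918). Values near 0 changed sign. In marrow, Cfp (-0.02) was 0.00 rescaled and -0.04 to 0.01 with libraries left out, S100a8 (0.00) was -0.06 to 0.09, Cd274 (-0.13) was -0.22 to 0.02 and C1qb (-0.07) was -0.23 to 0.12. Among differences, Ccr2 against BALB/c spleen was -0.06 with a pseudocount of 0.1, -0.14 rescaled and -0.28 to 0.25 with libraries left out. Against APCmin/+ spleen Cxcr2 was -0.04 rescaled and -0.39 to 1.01 with libraries left out, and S100a8 was -0.35 to 0.86. A minimum of 5 TPM left 7 called stroma and bone genes of 13, 3 endothelial of 9, 3 osteoclast of 5, 2 fetal and imprinted of 6 and 2 lower dendritic cell genes of 4, since fewer members were tested, and no filter left 3 megakaryocyte genes of 5. The cause of the other changes was not tested. Read depth is unknown, so genes of a few TPM may rest on few reads.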
